A study of Mus musculus with 34 samples.

Results

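Solute carriers are membrane proteins that move glutamate, GABA, sugars, amino acids, ions and metals across the plasma membrane or into organelles, and their gene symbols begin with Slc and a family number. Genes were taken from probe sets with a single platform symbol of that form, leaving out Slc32a1, with 1 probe set per gene, the one with the highest mean log2 level over all arrays. With Slc32a1 counted, 151 such genes were measured. Besides Slc32a1, 25 of them lay below a mean signal of 130 in every group, and the 125 that reached it in at least 1 group were kept, of 8251 genes named on the arrays in all. The rule used levels only, with no contrast between groups. The minimum was met in all 6 groups by 113 of the 125 and in some groups only by 12, among them Slc1a5, Slc6a12 and Slc7a7. A filter on dim probe sets then left 118 members tested in the hippocampus, 119 in the neocortex and 117 where both regions were fitted together. Just outside the minimum of 130 lay Slc7a11, whose highest group mean was 124.3, and just inside that minimum lay Slc6a12, with 148.0. Slc9a3r1, Slc9a3r2 and Slc4a1ap carry such symbols because their proteins bind a carrier, and they are not carriers themselves.

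The samples were the hippocampus and the neocortex of male mice, measured on Affymetrix arrays with 1 array per region and mouse. Kainate, an agonist of glutamate receptors that provokes seizures, was injected into the abdomen 3 times at 15 mg/kg (5 mice), nicotine, an agonist of nicotinic acetylcholine receptors, 3 times at 10 mg/kg (6 mice), and saline in the same way (6 mice). The injections were given on postnatal day 23 at intervals of 2 h, and the survivors were killed on day 30, so that only mice that lived through the treatment entered each group. The labels used here give no strain and tie no hippocampus array to the neocortex array of its mouse. The pieces were whole regions, and fewer cells of a type cannot be told apart from less RNA per cell.

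A neuron that fires releases glutamate or GABA, and carriers of the Slc1 and Slc6 families then clear the transmitter, driven by the sodium gradient. Sugar carriers of the Slc2 family bring glucose across the blood vessel wall and into neurons and glia. The chloride carriers Slc12a5 (KCC2), which extrudes chloride from neurons, and Slc12a2 (NKCC1), which takes it up, set the direction of the GABA response, and zinc carriers fill the synaptic vesicles of many glutamatergic terminals. Signals below are MAS5 signals on a linear scale, which compare a gene between arrays but not one gene with another. Fold changes are log2 differences of signal + 16 with their standard errors (SE), and a gene was called where limma's p-value, adjusted by the Benjamini-Hochberg method over all 8695 probe sets tested, was under 0.05.

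Kainate lowered 1 of 118 tested carrier genes in the hippocampus, Slc1a1, and raised 0 at that threshold. Over all probe sets 2.79% were called in this comparison, 1.84% higher and 0.955% lower. An unadjusted p under 0.05 was found for 13 of 118 members and for 14.2% of all probe sets, so carriers moved no more often than the array as a whole. The median fold change of the members was 0.07, against 0.01 over all probe sets. Of the 118 members 75 lay above 0 and 43 below it. With each array centred on its median, which moves every fold change here by -0.11, 47 lay above and 71 below, so the balance of directions depended on the scaling. Over all probe sets the calls were 160 higher and 83 lower, and 130 higher and 313 lower after that centring.

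Slc1a1 encodes EAAC1, the glutamate and cysteine carrier of neurons. Its signal in the kainate hippocampus was 1391.8, 1499.7, 1168.6, 1107.4 and 1515.3, and in the saline hippocampus it ran from 1645.8 through a median of 1763.2 to 2607.1. Every kainate array lay below every saline array, a separation downwards that 1.18% of all probe sets showed. The means were 1337 ± 189 with kainate (SD, n = 5) and 1899 ± 361 with saline (SD, n = 6), and the log2 fold change was -0.49 ± 0.12 (adjusted p = 0.0303). The nicotine hippocampus, with 1512.6 to 2021.7 and a median of 1767.0, overlapped the saline arrays (fold change -0.09 ± 0.12, adjusted p = 0.929). In the neocortex the means were 1237 ± 109 with kainate, 1204 ± 48.5 with nicotine and 1242 ± 181 with saline, and the kainate fold change was 0.00 ± 0.11.

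The call of Slc1a1 rested on few arrays. The saline array with 2607.1 stood apart, and without it the fold change was -0.40 (adjusted p = 0.0630). It was also lost without saline replicate 6 (0.0582), kainate replicate 3 (0.0768) or kainate replicate 4 (0.101). Within the 3 sets of arrays with like levels of control probe sets, kainate minus saline was -0.45, -0.56 and -0.30. The largest of these sets held 3 kainate arrays and the others 1 each, with 2 saline arrays in each set. A dimmer probe set of the same gene gave -0.55 ± 0.20 with an adjusted p of 0.168. The difference between the kainate effects in the 2 regions was -0.50 ± 0.16 and did not pass (adjusted p = 0.212, unadjusted p = 0.00353).

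Cell markers moved in the same arrays. The summed signal of 13 measured microglia and macrophage genes was 49036 to 78121 in the kainate hippocampus and 17665 to 20364 in the saline hippocampus, and 11 of 11 tested genes of that list rose. Of 8 tested astrocyte genes 3 rose, and the list's sum was 68806 to 79391 with kainate and 46518 to 50374 with saline. For neurons, 0 of 5 tested excitatory genes were called, with sums of 17520 to 20146 with kainate and 18303 to 27344 with saline. Of 8 interneuron genes 1 fell, with sums of 20303 to 22684 with kainate and 24384 to 28369 with saline. The part of these cell markers in the Slc1a1 level was not tested.

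**Figure D1:**
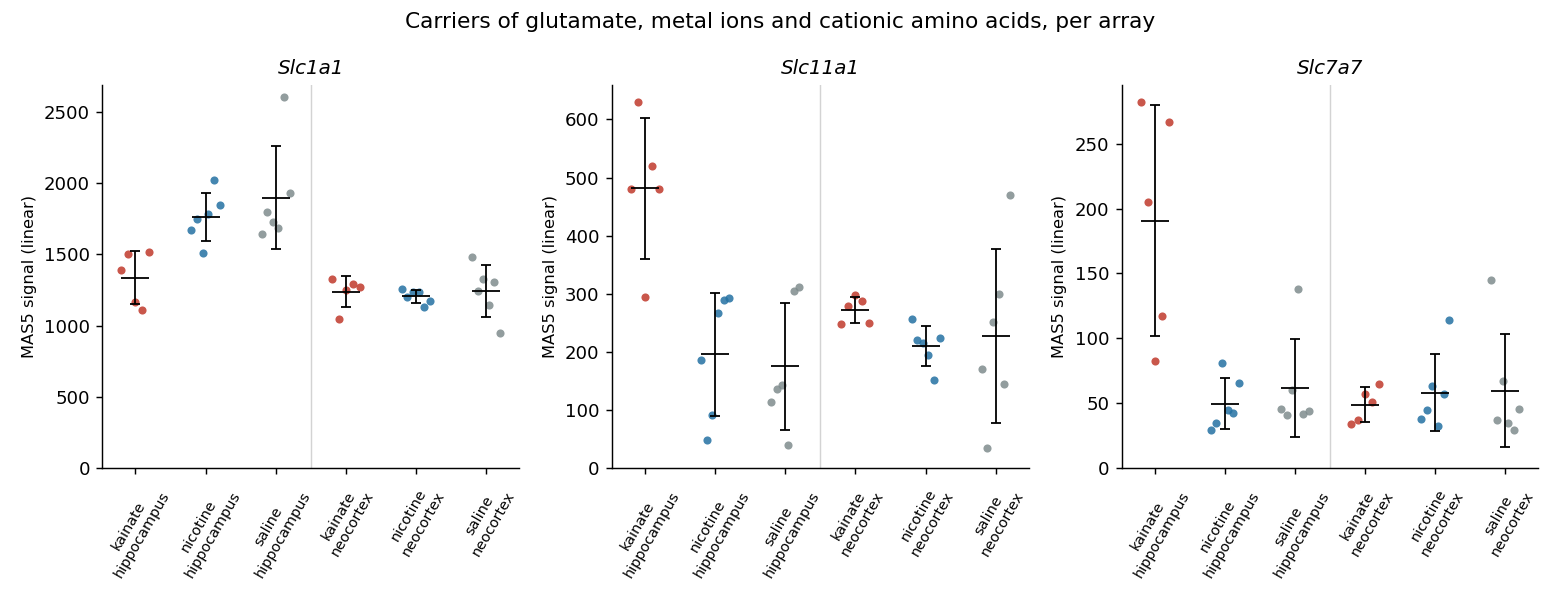
MAS5 signal (y axis, linear) of Slc1a1, Slc11a1 and Slc7a7 in each array of the 6 groups (x axis), with the group mean (bar) and SD (whiskers). For Slc1a1 the 5 kainate hippocampus arrays lie between 1107.4 and 1515.3, below all 6 saline hippocampus arrays, and for Slc11a1 4 of the 5 lie above all saline hippocampus arrays.

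Slc11a1 (NRAMP1), a metal carrier of the phagosomes of macrophages, was singled out after its values were seen, as it missed the threshold. It had 479.7, 629.7, 294.8, 520.7 and 481.0 in the kainate hippocampus, against 40.1 to 312.0 with a median of 139.0 in the saline hippocampus. Only kainate replicate 3 lay within the saline range. The fold change was 1.57 ± 0.45 (adjusted p = 0.0621), and adjusted p-values over 9 alternative settings ran from 0.0100 to 0.111, under 0.05 in 5 of them. In the nicotine hippocampus it ran from 48.8 to 292.0 (0.17 ± 0.42), and in the kainate neocortex from 247.3 to 297.8 (0.54 ± 0.38, adjusted p = 0.903). Slc7a7 (y+LAT1), a carrier of cationic amino acids, met the minimum level only through the kainate hippocampus, where it had 282.1, 205.3, 82.4, 117.2 and 267.0, and it lay below the filter of the test. In the saline hippocampus it ran from 40.8 to 138.2, and without a filter the fold change was 1.39 with an adjusted p of 0.0452, a value that its selection through this group makes a description only. Slc11a1 lay within its saline range in replicate 3 and Slc7a7 in replicates 3 and 4. The summed microglia and macrophage list ran from 49036 to 78121 in these 5 kainate arrays, against 17665 to 20364 with saline. The part of that list in the levels of both genes was not tested.

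Other members with an unadjusted p under 0.05 after kainate in the hippocampus were not called. Slc27a1 (FATP1), a fatty acid carrier, had 1763.0, 2057.7, 2210.1, 1964.8 and 1813.1 with kainate and 1075.5 to 1782.9 with saline (0.42 ± 0.13, adjusted p = 0.0859). Slc7a9, the light chain of the cystine carrier, had 137.0 to 316.6 with kainate, 109.0 to 493.6 with nicotine and 55.4 to 227.4 with saline. Its adjusted p was 0.153 for kainate and 0.851 for nicotine (1.04 ± 0.33), in comparisons that share the saline arrays. Slc29a1 (ENT1), an adenosine carrier, stood at 0.84 ± 0.33 (0.220), and Slc37a4, the glucose 6-phosphate carrier of the endoplasmic reticulum, at -0.39 ± 0.14 (0.173). A dimmer probe set of Slc29a1 gave 0.36 ± 0.27 (adjusted p = 0.585). By class, the median fold change ran from -0.07 for the 1 monocarboxylate carrier to 0.84 for the 1 nucleoside carrier tested, and among classes of more than 5 tested members from -0.03 (glucose) to 0.15 (organic ions, vitamins and others).

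**Figure D2:**
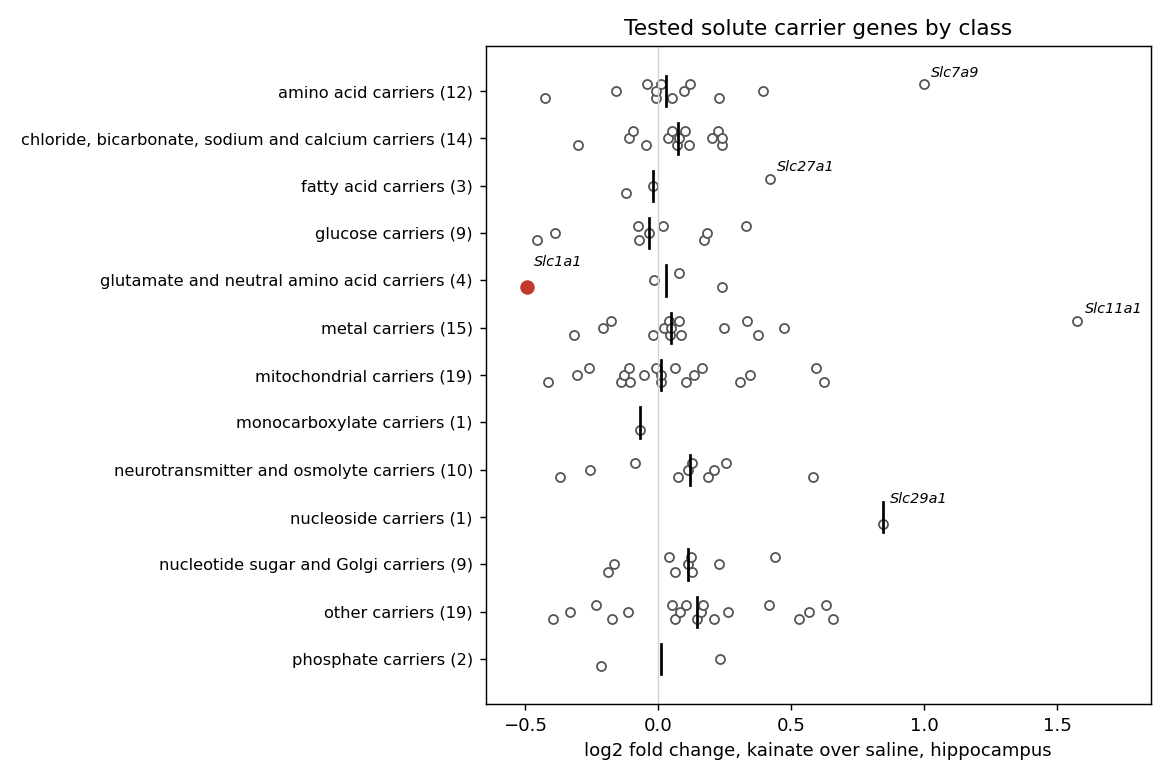
log2 fold change of kainate over saline in the hippocampus (x axis) for the 118 tested members by class (y axis, number tested in brackets), with a bar at each class median. Slc1a1 at -0.49 is the 1 red (called) point, and Slc11a1 at 1.57 lies farthest to the right.

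In the neocortex kainate changed 0 of 119 tested members (0.0115% of all probe sets were called), and 7 had an unadjusted p under 0.05 (5.88%, against 5.57% of all probe sets). The smallest p belonged to Slc9a3r1 (NHERF1), a scaffold that binds the sodium-proton exchanger of its name, with 2652.5, 2524.7, 1923.4, 2293.0 and 2652.2 with kainate and 2706.7 to 3202.0 with saline (-0.29 ± 0.09, adjusted p = 0.769). All 5 kainate arrays lay below all saline arrays, as 0.253% of all probe sets did. The creatine carrier Slc6a8 followed, with -0.33 ± 0.11 (0.811). Neither value passes the adjustment. In 1 member of family 6, also not called, every kainate array lay above every saline array, as 0.311% of all probe sets did.

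Nicotine changed 0 of 118 tested members in the hippocampus and 0 of 119 in the neocortex, and 0% of all probe sets were called in either region. Unadjusted p-values under 0.05 numbered 11 (9.32%, against 5.80% of all probe sets) in the hippocampus and 12 (10.1%, against 9.60%) in the neocortex. In the hippocampus the smallest belonged to Slc25a45, a mitochondrial carrier, with 309.8 to 563.8 after nicotine and 82.0 to 419.3 after saline (1.02 ± 0.30, adjusted p = 0.851). In the neocortex they belonged to the sodium-proton exchanger Slc9a8, with 865.8 to 1316.1 after nicotine and 891.9 to 996.3 after saline (0.33 ± 0.11, 0.404), and to the ADP/ATP carrier Slc25a5 (0.27 ± 0.10, 0.418). The 6 nicotine arrays of Slc25a5, 2780.7 to 3533.5, lay above the 6 saline arrays, 2347.9 to 2688.5, as 0.311% of all probe sets did. Its probe set is of the kind made for a gene family, so related ADP/ATP carriers may share its signal. In the hippocampus 1 member, of the class of organic ions, vitamins and others, had every nicotine array above every saline array, as 0.069% of all probe sets did. The interaction of drug and region was called for 0 of 117 members with kainate (0.794% of all probe sets) and 0 of 117 with nicotine (0%). For nicotine the smallest p-values were those of Slc25a45 (1.11 ± 0.42) and the anion exchanger Slc4a2 (0.42 ± 0.17), both with an adjusted p of 0.994. For kainate they were those of Slc1a1 and Slc27a1 (0.63 ± 0.21, adjusted p = 0.232).

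The other glutamate carriers gave no call in any drug comparison. Slc1a2 (GLT-1), the main glutamate carrier of astrocytes, had 597.0, 1116.9, 549.2, 1212.6 and 1125.3 in the kainate hippocampus, 276.0 to 1129.7 in the nicotine hippocampus and 462.2 to 1458.1 in the saline hippocampus. Its ranges overlapped and its spread was wide, so that fold changes of 0.24 ± 0.37 after kainate and -0.40 ± 0.35 after nicotine stood well within the error. In the neocortex its means were 707 ± 204 with kainate, 744 ± 174 with nicotine and 873 ± 308 with saline. Slc1a6 (EAAT4), best known from Purkinje cells, had hippocampal means of 411 ± 109 with kainate, 440 ± 156 with nicotine and 399 ± 139 with saline. Slc1a4 (ASCT1), a carrier of alanine, serine and cysteine, varied little across groups, with means of 2476 ± 373, 2401 ± 331 and 2488 ± 231 in the kainate, nicotine and saline hippocampus and 2398 ± 201, 2373 ± 168 and 2156 ± 215 in the kainate, nicotine and saline neocortex. Slc1a5 (ASCT2), which carries glutamine, met the minimum in 4 of the 6 groups and was tested only in the neocortex (-0.27 ± 0.49 after kainate and 0.04 ± 0.47 after nicotine).

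Of the GABA carriers, Slc6a13 (GAT2), known from the meninges and blood vessels, had 1231.5, 789.8, 1680.4, 1940.7 and 856.5 in the kainate hippocampus, 870.8 to 1453.1 in the nicotine hippocampus and 759.5 to 1391.1 in the saline hippocampus. The fold change after kainate was 0.21 ± 0.21 in the hippocampus and -0.30 ± 0.16 in the neocortex (adjusted p = 0.721 and 0.903). Slc6a12 (BGT1), a carrier of betaine and GABA, met the minimum in 2 groups and lay below the filter of the test, with hippocampal means of 126 ± 82.2 with kainate, 148 ± 77.9 with nicotine and 133 ± 45.8 with saline, and neocortical means of 59.1 ± 40.6, 100.3 ± 56.0 and 98.6 ± 63.5 in the same order of treatment. The vesicular glutamate carriers Slc17a6 to Slc17a8 were not analysed here. Among the other members of family 6, Slc6a9 (GLYT1), a glycine carrier, had fold changes of 0.11 ± 0.09 after kainate and 0.17 ± 0.09 after nicotine in the hippocampus, and Slc6a6, the taurine carrier, 0.25 ± 0.13 and 0.28 ± 0.13. Neither gene was called, and a dimmer probe set of Slc6a6 gave -0.02 ± 0.45 after kainate and -0.28 ± 0.43 after nicotine.

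Slc2a1 (GLUT1), the glucose carrier of the blood vessel wall and astrocytes, had 1867.4, 2086.3, 852.1, 1327.6 and 2572.8 in the kainate hippocampus, 1504.3 to 2806.3 in the nicotine hippocampus and 1128.2 to 2166.8 in the saline hippocampus. These ranges overlapped, with fold changes of -0.03 ± 0.24 after kainate and 0.25 ± 0.23 after nicotine. In the neocortex it averaged 1779 ± 279 with kainate, 2401 ± 299 with nicotine and 1951 ± 352 with saline, and the nicotine fold change of 0.31 ± 0.12 had an adjusted p of 0.435. Slc2a3 (GLUT3), the glucose carrier of neurons, had hippocampal means of 2117 ± 424 with kainate, 2534 ± 284 with nicotine and 2216 ± 315 with saline (fold changes -0.08 ± 0.13 and 0.20 ± 0.12). Slc2a8 (GLUT8), a carrier of internal membranes, had means of 1202 ± 126, 1245 ± 179 and 1065 ± 181 in the same groups, with fold changes of 0.18 ± 0.13 and 0.23 ± 0.12. The dimmer Slc2a4 (GLUT4, the insulin-regulated carrier) and Slc2a5 (GLUT5, a fructose carrier) had fold changes of -0.46 ± 0.41 and 0.33 ± 0.32 after kainate in the hippocampus. Slc2a4 after nicotine stood at -0.88 ± 0.39 (adjusted p = 0.851). No carrier of glutamate, GABA or sugar other than Slc1a1 passed in a drug comparison.

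**Figure D3:**
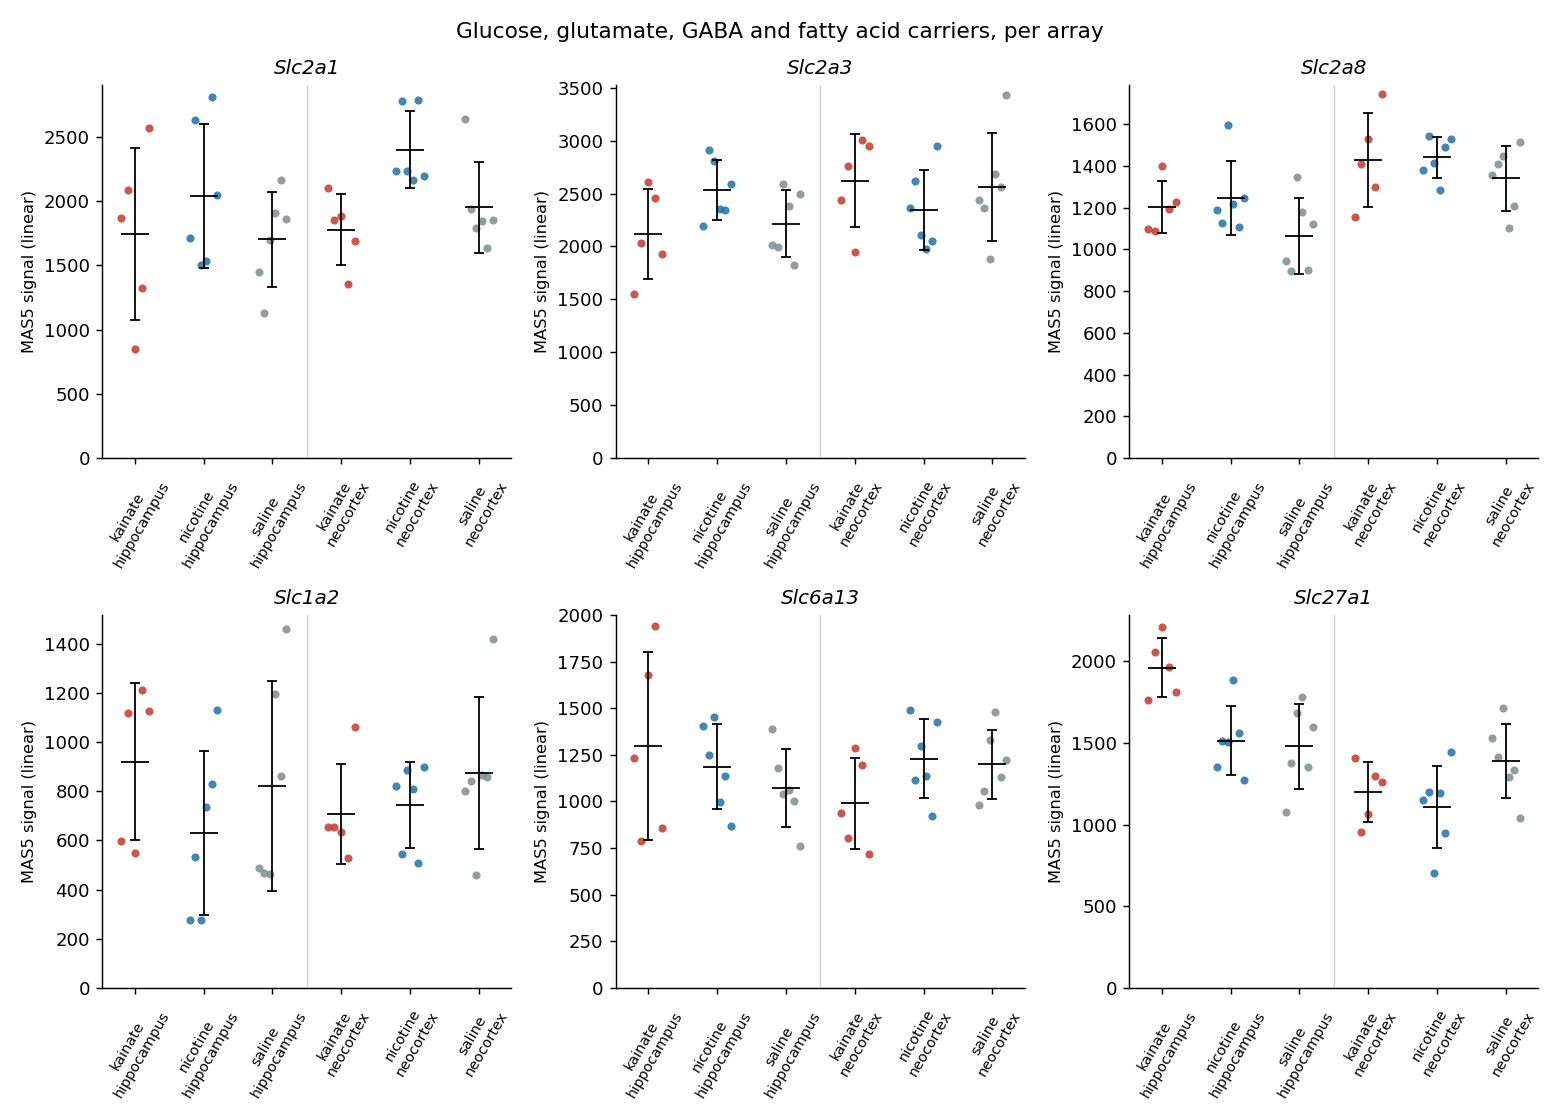
MAS5 signal (y axis, linear) of 3 glucose carriers, Slc1a2, Slc6a13 and Slc27a1 in each array of the 6 groups (x axis), with the group mean (bar) and SD (whiskers). In every panel and region the range of each drug overlaps that of saline. For Slc27a1 the 5 kainate hippocampus arrays lie at 1763.0 to 2210.1, above all 5 kainate neocortex arrays.

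The saline hippocampus differed from the saline neocortex in 10 of 117 tested members, 6 higher and 4 lower (8.55%, against 10.5% of all probe sets, of which 5.36% were higher and 5.19% lower), so carriers differed about as often as other genes. Without 1 array at a time the number lay between 7 and 11. The arrays were treated as independent, although both regions came from the same mice. Cell markers differed in the same comparison: 3 of 8 astrocyte, 3 of 7 myelin and 2 of 7 choroid plexus and meninges genes were higher. Of 6 excitatory neuron genes 2 were higher and 4 lower, and 3 of 8 interneuron genes were lower. Their part in the carrier levels was not tested.

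Among the transmitter and amino acid carriers, Slc1a1 was higher in the saline hippocampus (0.60 ± 0.11, adjusted p = 9.92e-05), where its 6 arrays lay at 1645.8 to 2607.1, against 950.8 to 1482.1 in the saline neocortex. These are the same saline arrays that its kainate comparison used. Its dimmer probe set gave 0.05 ± 0.18 in this comparison, so the 2 probe sets disagree. Slc6a15, a carrier of branched-chain amino acids in neurons, had 1290.2 to 2314.7 (median 1729.7) in the hippocampus and 821.0 to 1281.0 (median 1229.5) in the neocortex, a fold change of 0.62 ± 0.13 (adjusted p = 0.000481). Both genes, with Slc8a1, had all hippocampal arrays above all neocortical ones, as 3.28% of all probe sets did.

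Ion and metal carriers made up 6 of the 10. Calls covered 21.4% of the 14 tested members of the chloride, bicarbonate, sodium and calcium class and 18.75% of the 16 tested metal carriers. Over all probe sets the share was 10.5%. These classes hold few genes, and a difference in share was not tested. Slc8a1 (NCX1), which exchanges sodium for calcium, had 1143.4 to 1648.9 in the saline hippocampus and 955.3 to 1063.8 in the saline neocortex (0.45 ± 0.10, adjusted p = 0.00148). Slc41a1, a magnesium carrier, averaged 1623 ± 177 and 1138 ± 203 in hippocampus and neocortex (0.52 ± 0.12, 0.00355), with ranges that overlapped. Slc39a6 (ZIP6), a zinc importer, averaged 837 ± 119 in the hippocampus and 556 ± 150 in the neocortex (0.60 ± 0.16, 0.00881). Slc4a4 (NBCe1), the sodium-bicarbonate cotransporter of astrocytes, averaged 725 ± 156 in the hippocampus and 480 ± 157 in the neocortex (0.60 ± 0.17, 0.0135). Its call was lost without hippocampus replicate 5 (0.0512) and with the sets of like control probe sets as a block (0.0738). Within the 2 such sets that hold both regions it differed by -0.08 and 0.59, with only 1 saline neocortex array in 1 of these sets.

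Slc30a3 (ZnT3), which loads zinc into the vesicles of glutamatergic terminals, was lower in the hippocampus, with 5907.7 to 7855.5, against 8131.8 to 10916.0 in the neocortex (-0.47 ± 0.11, adjusted p = 0.00277), without overlap, as 2.93% of all probe sets were. Slc12a5 (KCC2) had 567.9 to 1346.1 with a median of 795.8 in the hippocampus, against 1168.1 to 1487.3 with a median of 1377.3 in the neocortex (-0.61 ± 0.18, 0.0270). Its hippocampal arrays were spread widely and overlapped the neocortical ones, and its call was lost without 1 array in 6 of 12 cases (adjusted p up to 0.0995), those of hippocampus replicates 1, 2, 5 and 6 and neocortex replicates 1 and 4. Within the 2 sets of like control probe sets the region difference was -0.95 and -0.08, with only 1 saline neocortex array in 1 of these sets. Its counterpart Slc12a2 (NKCC1), named here although it was not called, averaged 2667 ± 477 in the saline hippocampus and 2102 ± 416 in the saline neocortex (0.35 ± 0.17, 0.241). With the sets of like control probe sets as a block it was called (0.51 ± 0.16, adjusted p = 0.0234). Neither chloride carrier was called after kainate, with Slc12a5 at 0.08 ± 0.23 and Slc12a2 at 0.24 ± 0.18 in the hippocampus. The sign of the Slc12a5 value was not settled, as it was -0.04 with median centring, -0.13 with array weights and -0.12 with the sets of like control probe sets as a block. In the kainate hippocampus Slc12a5 had 655.1, 1071.3, 1245.1, 1300.0 and 600.7, and Slc12a2 had 4546.8, 3711.4, 1924.6, 2264.2 and 3979.4. Both genes were spread widely in that group, and their ranges overlapped the saline ranges.

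**Figure D4:**
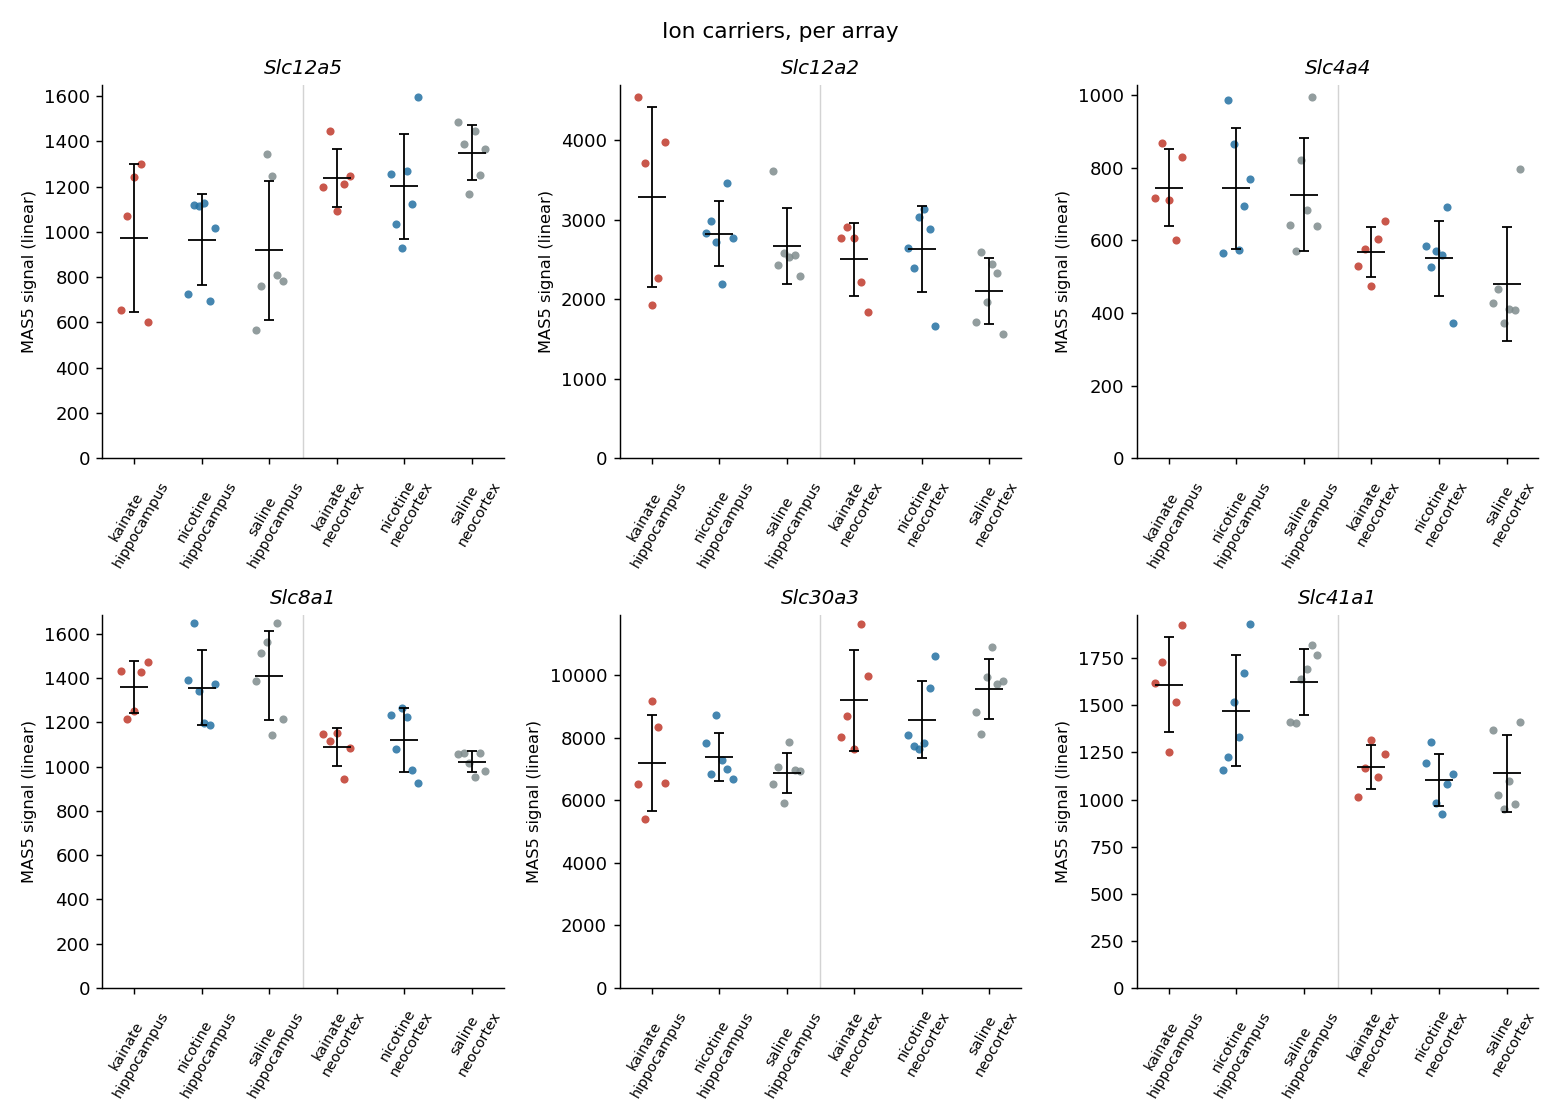
MAS5 signal (y axis, linear) of 6 ion carriers in each array of the 6 groups (x axis), with the group mean (bar) and SD (whiskers). Slc8a1 and Slc30a3 separate the saline regions without overlap, whereas the saline hippocampus arrays of Slc12a5 range from 567.9 to 1346.1.

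Slc23a2 (SVCT2), the ascorbate carrier of neurons, was lower in the saline hippocampus, with 2979.5 to 3774.5, against 4176.2 to 5475.6 in the saline neocortex (-0.44 ± 0.09, adjusted p = 0.000295). Slc2a8 was lower as well, with means of 1065 ± 181 in the hippocampus and 1339 ± 155 in the neocortex (-0.33 ± 0.11, 0.0451). Its call was lost without 1 array in 8 of 12 cases, those of replicates 1, 2, 5 and 6 of the hippocampus and 1, 2, 3 and 6 of the neocortex (adjusted p up to 0.120), and with array weights (0.0925) or no filter (0.0602). The remaining sugar carriers were not called, with Slc2a1 at -0.21 ± 0.19 and Slc2a3 at -0.20 ± 0.13.

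The region comparison was repeated in the drug arrays, a step added after seeing the data. It called 9 of 117 members in the kainate arrays (4 higher, 5 lower, with 13% of all probe sets called, 6.81% higher and 6.22% lower) and 7 in the nicotine arrays (5 higher, 2 lower, with 9.61% of all probe sets called, 4.69% higher and 4.92% lower). All 10 members called in the saline arrays kept their sign in both, and 4 of the 10 were called in each. Of the 917 probe sets called in the saline arrays, 95.2% kept their sign in the kainate arrays and 97.5% in the nicotine arrays, and 57.8% and 62.2% were called there. The median size of the 10 members was 0.31 in the kainate arrays and 0.40 in the nicotine arrays, against 0.56 in the saline arrays that had chosen them. Slc23a2 and Slc41a1 were called in all 3 treatments, as 5.06% of all probe sets were, and 17 of 117 members in at least 1, as 19.3% of all probe sets were. For Slc23a2 the fold changes were -0.31 ± 0.09 with kainate, -0.50 ± 0.09 with nicotine and -0.44 ± 0.09 with saline. All its hippocampal arrays lay below all its neocortical arrays in each treatment, as 4.51% of all probe sets did in the kainate arrays and 2.92% in the nicotine arrays. For Slc41a1 they were 0.44 ± 0.14, 0.40 ± 0.12 and 0.52 ± 0.12 in the same order. Its call in the kainate arrays was lost with median centring (adjusted p = 0.0718) and without any 1 of 3 arrays, and its call in the nicotine arrays with the sets of like control probe sets as a block (0.199) and without any 1 of 6 arrays. Leaving out 1 array ended the kainate call of Slc23a2 in 2 of 10 cases (adjusted p up to 0.106), of Slc30a3 in 6 and of Slc8a1 in 8. In the nicotine arrays it ended the call of Slc6a15 in 3 of 12 cases, and those of Slc1a1 and Slc23a2 in 0.

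Slc1a1 differed by 0.10 ± 0.12 between the kainate regions (adjusted p = 0.665), 0.54 ± 0.11 between the nicotine regions (0.000430) and 0.60 ± 0.11 between the saline regions. The test of kainate against saline in this difference is the one given above for the drug effects, which did not pass. Slc27a1 was higher in the kainate hippocampus than in the kainate neocortex without overlap (0.71 ± 0.15, adjusted p = 0.000958), as 5.49% of all probe sets were, and higher in the nicotine hippocampus (0.47 ± 0.14, 0.0239), with 0.09 ± 0.14 between the saline regions. Slc9a3r1 was called in the kainate arrays (0.47 ± 0.11, 0.00263) and stood at -0.01 ± 0.10 in the nicotine arrays and 0.07 ± 0.10 in the saline arrays. Lower in the kainate hippocampus than in the kainate neocortex were the zinc carrier Slc30a4 (-0.70 ± 0.21, 0.0206) and the mitochondrial carriers Slc25a14 (-0.43 ± 0.14, 0.0318) and Slc25a25 (-0.28 ± 0.09, 0.0413). Leaving out 1 array ended the call of Slc30a4 in 3 of 10 cases, of Slc25a14 in 5 and of Slc25a25 in 8. With the sets of like control probe sets as a block these 3 calls were lost, as were those of Slc20a1 and Slc27a1 in the nicotine arrays. In the nicotine arrays the phosphate carrier Slc20a1 was lower (-0.46 ± 0.13, 0.0173) and Slc35c2, of the nucleotide sugar family, was higher in the hippocampus (0.40 ± 0.13, 0.0358). Leaving out 1 array ended the call of Slc20a1 in 2 of 12 cases, of Slc27a1 in 3 and of Slc35c2 in 6 (adjusted p up to 0.123).

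**Figure D5:**
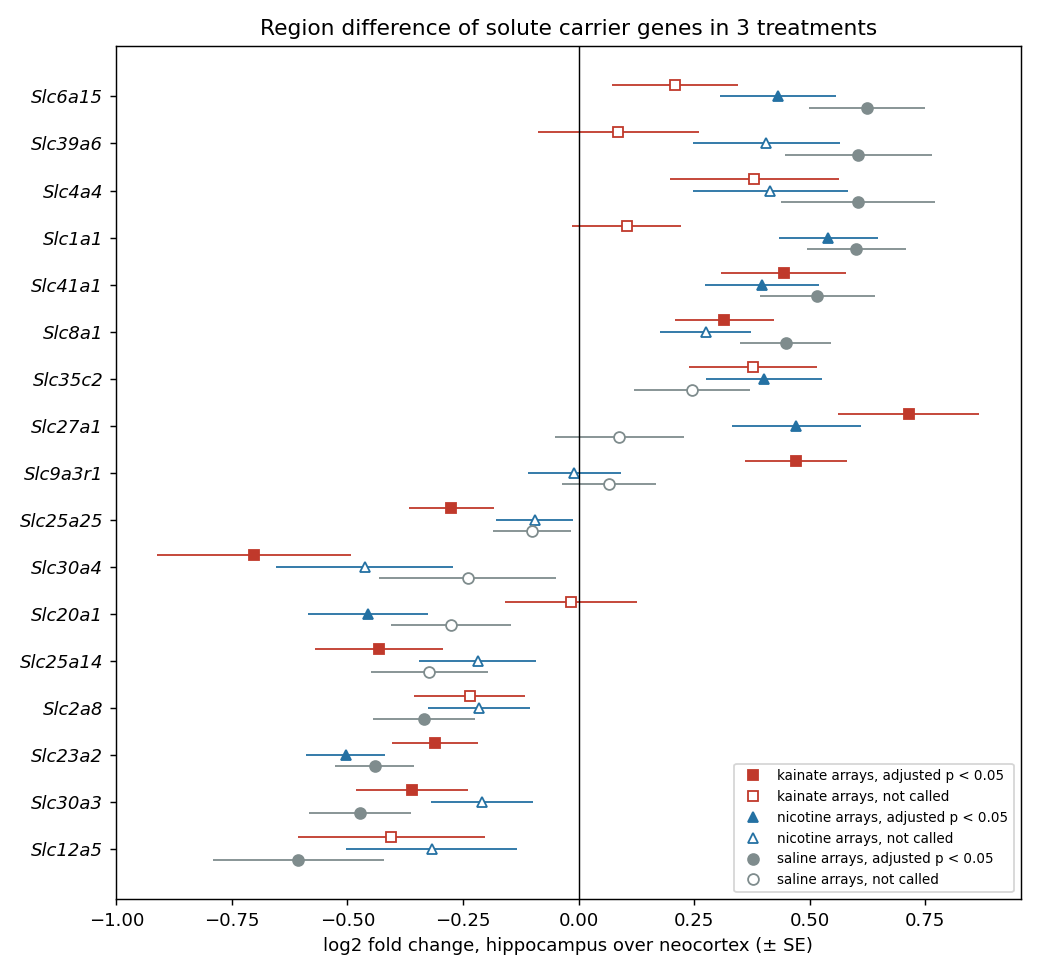
log2 fold change of hippocampus over neocortex with its SE (x axis) in the kainate, nicotine and saline arrays for the 17 members called in at least 1 of the 3 comparisons (y axis), with filled symbols for calls. Slc23a2 and Slc41a1 are filled in all 3 treatments, and for Slc1a1 the kainate value of 0.10 lies apart from 0.54 and 0.60.

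Where a gene had several probe sets, the others were tested for 16 members, and 0 of them were called in any of the comparisons. Precision is set by how few arrays a group holds, with a median SE over all probe sets of 0.17 for kainate and 0.16 for nicotine in the hippocampus.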

How the data were processed

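RNA from 34 samples, 17 arrays per region, was measured on Affymetrix arrays. The authors deposited 1 linear intensity per probe set and array, the MAS5 signal according to their processing notes, where no version is named. Trimmed by 2%, the array means were 1000.53 to 1000.62, a common level set before deposit, so each signal is relative to the rest of its array. What this scaling did to single genes was not tested beyond the alternative scalings. In the hippocampus, array medians were 403.1 to 438.6 with kainate, 394.25 to 434.55 with nicotine and 380.65 to 390.9 with saline.

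The table holds 12488 probe sets, of which 66 controls were left out. All 125 members matched the reference gene table by Entrez identifier. Log2(signal + 16) was fitted with limma 3.58.1 (lmFit, eBayes with trend) in R 4.3.3 on the 8695 probe sets with a mean at or above the 30th percentile (a signal of 130.5 in the hippocampus and 127.7 in the neocortex). The fit was also run on simulated data with independent arrays, which does not test the calls made here where arrays vary together. Fold changes of dim genes are understated. Drug comparisons used the 17 arrays of a region, and region comparisons and differences between regions all 34. Figures were drawn with matplotlib 3.10.9 in Python 3.11.15.

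A p-value of a drug comparison within a region reflects how far arrays of different mice vary. Across regions both pieces came from the same mice, and the p-value leaves that pairing out. The members, lists and tests were chosen with earlier results of these data known. Named genes were the Slc1, Slc2 and GABA carriers, members called in a drug comparison or interaction, ion carriers and up to 8 others in each direction called between saline regions, and the 2 smallest p-values where none was called. Members called between the kainate or nicotine regions, Slc11a1, Slc7a7, Slc12a2, Slc6a6, Slc6a9, Slc29a1, Slc37a4 and the hippocampal kainate values of Slc27a1 and Slc7a9 were added after their values were seen. Scan dates or batches were not given in the sources used here, so arrays were grouped by the levels of 41 control probe sets into 4 sets, each region's sets holding all 3 treatments. Alternatives were pseudocounts of 1 and 64, other filters and scalings, array weights, blocks, a second probe set and leaving out each array.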

Additional observations from a re-analysis of the deposited data

Results flagged for a closer look

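Of 204 combinations of a named gene and a group, 13 held an array far from the others of its group, measured by its gap to the nearest array relative to the range. Chance flags about 1 in 20 such groups. In the hippocampus these were the Slc1a1 signal of 2607.1 in saline replicate 5 (others 1645.8 to 1930.9), and in nicotine replicate 3 the signals of Slc2a4 (435.6, others 44.6 to 157.1), Slc2a8 (1594, others 1106.9 to 1245.2) and Slc39a6 (993.1, others 750.9 to 825.5). Nicotine replicate 4 stood apart for Slc6a12 (297.6, others 72.8 to 153.7).

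In the kainate neocortex the arrays concerned were replicate 2 for Slc1a1 (1047.2, others 1248.7 to 1323.5), replicate 5 for Slc1a2 (1059.2, others 527.9 to 656.0), replicate 1 for Slc6a12 (130, others 28.7 to 52.7) and replicate 4 for Slc23a2 (5824.2, others 4062.1 to 4402.0). In the nicotine neocortex replicate 3 was low for Slc25a14 (920.1, others 1185.5 to 1292.2). In the saline neocortex replicate 1 was high for Slc2a1 (2641.2, others 1638.8 to 1935.5) and replicate 6 for Slc2a4 (362, others 48.2 to 157.2) and Slc4a4 (794.9, others 371.7 to 466.5). The Slc1a1 array of the saline hippocampus bears on a call, which was lost without it.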

How the results depend on the processing

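After kainate in the hippocampus 1 member was called. The count was 2 with a pseudocount of 64, without a filter, with array weights or with all 34 arrays in 1 fit, 3 with median centring or with the sets of like control probe sets as a block, 0 with the second probe set of each gene, and 0 to 1 with single arrays left out. With the replicate block it was 4 (Slc1a1 and Slc22a17 lower, Slc11a1 and Slc27a1 higher). The labels do not say that a number marks a shared mouse or day, and arrays of a region with the same number in different treatments had correlations of their deviations from -0.17 to 0.28 (median 0.094, 15 of 32 pairs over 0.1), against a median of -0.019 for other numbers (16 of 160 over 0.1). Of 34 arrays 17 correlated best with their own number among 6 numbers, more than an even pick would give. Arrays of a region with the same number thus tended to be more alike. What they share is not known, and the main fit leaves the number out. The replicate block moved no other count by more than 1.5 times. Besides Slc1a1, the members called were Slc11a1, Slc22a17, Slc27a1, Slc35b1 and Slc7a7, each under some settings only, and the cause was not tested. Slc7a7 was called without a filter, and as it became a member through the kainate hippocampus, that call is a description only. Slc1a1 kept its direction in all of these settings, with fold changes of -0.61 to -0.44 outside single left-out arrays. Between the saline regions 10 members were called, and 7 to 11 with single arrays left out. The count was 6 with the second probe set, a setting that left out genes whose second probe set lay below the filter. Of the 10, only Slc1a1 had a second probe set that was tested. Between the kainate regions 9 were called, 14 with the control sets as a block and 4 to 9 without single arrays (4 or 5 without hippocampus replicate 1 or neocortex replicates 1, 2 or 4). Between the nicotine regions 7 were called, and 4 to 10 without single arrays (4 without hippocampus replicates 3 or 4 or neocortex replicates 3 or 5). Over all probe sets, 243 were called after kainate in the hippocampus and 443 with median centring. For kainate in the neocortex, nicotine in either region and both interactions, 0 members were called under each alternative run. Median centring turned the sign of many members after kainate in the hippocampus, from 75 above 0 to 47. Among the named values recomputed under each alternative, 18 of Slc1a1 that were not called changed sign. Its kainate fold change in the neocortex, 0.00, was -0.0082 with median centring, -0.0060 with quantile normalization, -0.069 with array weights, -0.038 with the replicate block and -0.21 with the dimmer probe set, and -0.071 to 0.061 without single arrays. Without single arrays it ran from -0.13 to 0.0020 after nicotine in the hippocampus, from -0.10 to 0.022 after nicotine in the neocortex, and from -0.11 to 0.034 for the difference of the nicotine effects. With the dimmer probe set it was also 0.042 after nicotine in the hippocampus, -0.42 after nicotine in the neocortex (unadjusted p = 0.0296, adjusted p = 0.491), 0.46 for the difference of the nicotine effects and -0.29 between the kainate regions. Dim genes such as Slc1a5, Slc6a12 and Slc7a7 were limited by signal.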
